A study of Mus musculus with 4 samples.

Results

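Cells with many transcripts of the MCM helicase were described in cultures of regulatory B cells (Bregs) made in vitro from mouse spleen. The 1269 cells were all those of the libraries numbered 7 and 8 in which the 7 genes Mcm2 to Mcm7 and Gins2 together gave at least 0.1% of the cell's unique molecular identifiers (UMIs, each standing for 1 captured transcript), with fewer than 10 UMIs summed over the 8 mitotic genes Mki67, Top2a, Birc5, Cenpf, Ube2c, Cdk1, Hmmr, and Tpx2 and fewer than 5 UMIs of Jchain, a gene of antibody-secreting cells. They were 777 of 5621 cells in library 7 (13.8%, exact binomial 95% interval 12.9% to 14.8%) and 492 of 4003 in library 8 (12.3%, 11.3% to 13.3%), out of 18534 cells of the 4 libraries that showed 1000 or more genes and a mitochondrial share of UMIs below 10%. The comparison population, called noncycling here, was the 7715 cells of the same 2 libraries below both limits (4491 and 3224), and the 558 cells with 10 or more mitotic UMIs (299 and 259) are called mitotic. That name follows the 8 genes alone, and cells in S phase or G2 were not told apart from cells in mitosis.

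Naive B cells were purified by negative selection from spleens of wild-type C57BL/6 mice aged 6 to 12 weeks. One group, Bregs-CpG, was kept for 3 days with CpG (10 μg/mL), a ligand of TLR9. The other, Bregs-TLR, had the same culture, and in its final 5 hours LPS, a TLR4 ligand, was added at 10 μg/mL together with the phorbol ester PMA at 50 ng/mL and the calcium ionophore ionomycin at 1 μg/mL. Each group had 2 replicates, and the sources used here do not say whether these came from separate mice. No label ties a library number to a group, so all cells were handled as 1 pooled sample, libraries 7 and 8 are shown apart without being called replicates of a group, and no test was made. A gene was counted as higher or lower where the summed UMIs per 1000000 UMIs (CPM) of the MCM-high and noncycling cells differed at least 1.5-fold in the same direction in both libraries, among genes with a mean of at least 5 CPM over the 4 sums. The cells were chosen by a readout, so the levels below describe them and test nothing. Intervals cover counting error only.

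Before a cell copies its DNA, the origin recognition complex, Cdc6, and Cdt1 load rings of Mcm2 to Mcm7 onto origins of replication. In S phase, Cdc45 and the GINS complex turn these rings into the helicase that opens the fork, and geminin (Gmnn) then blocks a second loading. The E2F transcription factors switch on many of these genes at the passage from G1 into S phase. B cells activated through TLR9 divide, and IL-10 is the cytokine most used to define Bregs.

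Of the 6 genes taken as markers of these cells, Mcm3 and Mcm5 belong to the rule, and Ung, Hells, Dtl, and Il10 do not. Ung codes for the uracil-DNA glycosylase that removes uracil from DNA, Hells for a chromatin remodeler needed for DNA methylation, and Dtl for the adaptor that targets Cdt1 for destruction in S phase. Promoter windows of 300 bases, from 250 bases before the annotated start to 50 bases after it, are shown for Mcm3 (chr1:20820263-20820562, minus strand), Mcm5 (chr8:75109259-75109558, plus strand), Hells (chr19:38930740-38931039, plus strand), Dtl (chr1:191575495-191575794, minus strand), and Ung (chr5:114130185-114130484, plus strand), since these are the genes by which the cells are known. Pclaf (chr9:65890073-65890372, plus strand), which codes for a partner of the replication clamp PCNA, is shown because its mean log2 ratio of 4.51 was the highest among the 7967 genes with a mean of at least 5 CPM. Il10 was the sixth marker. The sequences are from RefSeq on GRCm38.p6, and capitals mark matches, on either strand, to the E2F letters TTTCCCGC, TTTCGCGC, TTTGCCGC, or TTTGGCGC.
Mcm3: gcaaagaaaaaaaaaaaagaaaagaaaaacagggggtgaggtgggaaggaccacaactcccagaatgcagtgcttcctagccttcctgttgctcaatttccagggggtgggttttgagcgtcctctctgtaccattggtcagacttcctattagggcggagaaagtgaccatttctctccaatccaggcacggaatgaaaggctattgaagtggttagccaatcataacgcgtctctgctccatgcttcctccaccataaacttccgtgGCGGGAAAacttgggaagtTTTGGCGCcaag
Mcm5: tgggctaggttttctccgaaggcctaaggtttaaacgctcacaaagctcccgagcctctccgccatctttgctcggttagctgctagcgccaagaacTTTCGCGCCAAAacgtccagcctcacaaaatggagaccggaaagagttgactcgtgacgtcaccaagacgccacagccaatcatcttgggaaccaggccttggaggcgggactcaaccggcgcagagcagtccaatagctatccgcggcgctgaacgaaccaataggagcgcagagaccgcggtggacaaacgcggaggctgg
Hells: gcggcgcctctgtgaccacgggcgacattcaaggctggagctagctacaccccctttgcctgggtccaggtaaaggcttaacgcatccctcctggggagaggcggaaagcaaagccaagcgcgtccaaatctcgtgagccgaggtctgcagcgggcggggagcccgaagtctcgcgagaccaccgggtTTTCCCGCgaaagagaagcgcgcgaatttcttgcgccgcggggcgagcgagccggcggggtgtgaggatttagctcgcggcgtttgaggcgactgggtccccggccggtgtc
Dtl: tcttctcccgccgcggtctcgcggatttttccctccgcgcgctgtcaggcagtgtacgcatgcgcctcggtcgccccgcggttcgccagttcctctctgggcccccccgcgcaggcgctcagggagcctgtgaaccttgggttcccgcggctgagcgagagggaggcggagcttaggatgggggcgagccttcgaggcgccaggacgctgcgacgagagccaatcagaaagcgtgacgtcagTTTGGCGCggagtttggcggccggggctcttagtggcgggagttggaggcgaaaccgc
Pclaf: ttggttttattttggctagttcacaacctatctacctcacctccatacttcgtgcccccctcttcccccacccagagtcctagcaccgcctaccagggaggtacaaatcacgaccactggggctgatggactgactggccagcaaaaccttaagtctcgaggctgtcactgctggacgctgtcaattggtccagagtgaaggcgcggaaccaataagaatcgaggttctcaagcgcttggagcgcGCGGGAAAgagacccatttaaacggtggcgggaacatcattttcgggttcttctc
Ung: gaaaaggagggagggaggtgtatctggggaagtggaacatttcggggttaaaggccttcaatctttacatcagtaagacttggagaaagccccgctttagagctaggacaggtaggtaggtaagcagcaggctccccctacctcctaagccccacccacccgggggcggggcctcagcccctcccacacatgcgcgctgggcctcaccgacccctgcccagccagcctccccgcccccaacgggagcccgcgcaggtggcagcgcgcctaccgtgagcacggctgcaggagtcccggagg
Mcm3 has its matches 19 and 38 bases after the start, Hells 62, Dtl 8, and Pclaf 5 bases before it, and the 2 matches of Mcm5 overlap each other. The Ung window holds none of these letters.

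Among the MCM-high cells the share of UMIs from the rule's 7 genes ran from 0.1% to 0.337% in library 7 (median 0.143%) and from 0.1% to 0.360% in library 8 (median 0.138%). The median cell held 18 UMIs of these genes in library 7 and 17 in library 8. As the plot of cells along this share shows, cell numbers declined without a gap at the limit, from 207 cells between 0.08% and 0.1% to 198 between 0.1% and 0.12% in library 7. The 101 and 68 cells just inside the limit (0.1% to 0.11%) and the 102 and 85 just outside it (0.09% to 0.1%) are given here without a test. Hells stood at 177 and 182 CPM inside and at 170 and 156 outside in libraries 7 and 8, and Ung at 115 and 133 inside and at 82.5 and 106 outside. Pclaf stood at 19.1 and 12.6 CPM inside and at 24.2 and 7.40 outside, and Il10 at 229 and 222 inside and at 253 and 285 outside. The MCM-high cells are therefore a range of a continuous measure. Their median depth was 12310 and 12096 UMIs, against 9833 and 9566.5 in noncycling cells and 16648 and 16325 in mitotic cells of libraries 7 and 8. After thinning to 5000 UMIs, which left out 20 and 8 shallower members, 86.7% and 86.6% of the remaining 757 and 484 were still over the limit. Libraries 7 and 8 shared 3 cell barcodes, none of them between 2 members.

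**Figure D1:**
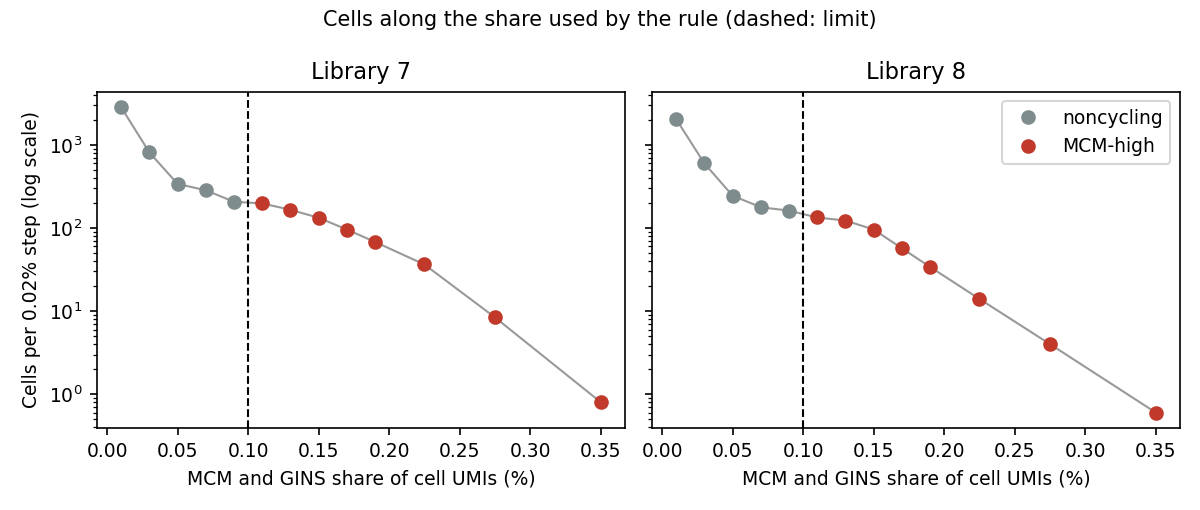
Number of cells per 0.02% step (log scale) along the percentage of a cell's UMIs that came from the 7 MCM and GINS genes, for libraries 7 and 8. Red points are MCM-high cells and grey points noncycling cells. The numbers decline smoothly across the limit at 0.1% (dashed).

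The markers of the label outside the rule were far above the noncycling cells, apart from Il10. Ung stood at 127 CPM in library 7 (exact Poisson 95% interval 121 to 135) and 134 in library 8 (125 to 143), against 28.4 and 28.3 in noncycling cells. Hells stood at 219 and 230 CPM, against 41.2 and 40.2. Dtl stood at 106 and 104 CPM, against 25.8 and 26.3. For these 3 genes both values of the MCM-high cells lay above both of the noncycling cells, with mean log2 ratios of 2.20, 2.47, and 2.02. Mcm3, a gene of the rule, stood at 430 and 405 CPM, against 70.0 and 68.4. When each cell's UMIs were split at random into 2 equal parts, with cells chosen on one and measured in the other, the mean log2 ratio of Mcm3 was 2.27, that of Mcm5 2.52, and that of Ung 2.08.

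The label calls the cells rich in Il10, and within their own libraries that did not set them apart. Il10 stood at 247 CPM in library 7 (238 to 257) and 263 in library 8 (250.2 to 276), and in noncycling cells at 264 and 257. The log2 ratio was -0.09 in library 7 (interval -0.16 to -0.03) and 0.03 in library 8 (-0.04 to 0.11), so the direction differed between the libraries. At 5000 UMIs per cell, 57.1% and 62.0% of the MCM-high cells held an Il10 UMI, against 56.9% and 58.0% of noncycling cells. Without thinning these shares were 73.7% and 79.7%, against 69.1% and 70.0%. The label held against the other libraries. In libraries 5 and 6, 3.93% and 3.12% of noncycling cells held an Il10 UMI after thinning (6.92% and 6.36% before). Median depths of these noncycling cells were 8434 and 8471.5 UMIs. Among the few MCM-high cells of libraries 5 and 6 the shares were higher, at 7.32% and 12.9% after thinning (10.98% and 24.4% before). All these cells are B cells too, so their shares are low references and not those of a cell type that must lack the gene. Free RNA in the droplets was not tested.

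**Figure D2:**
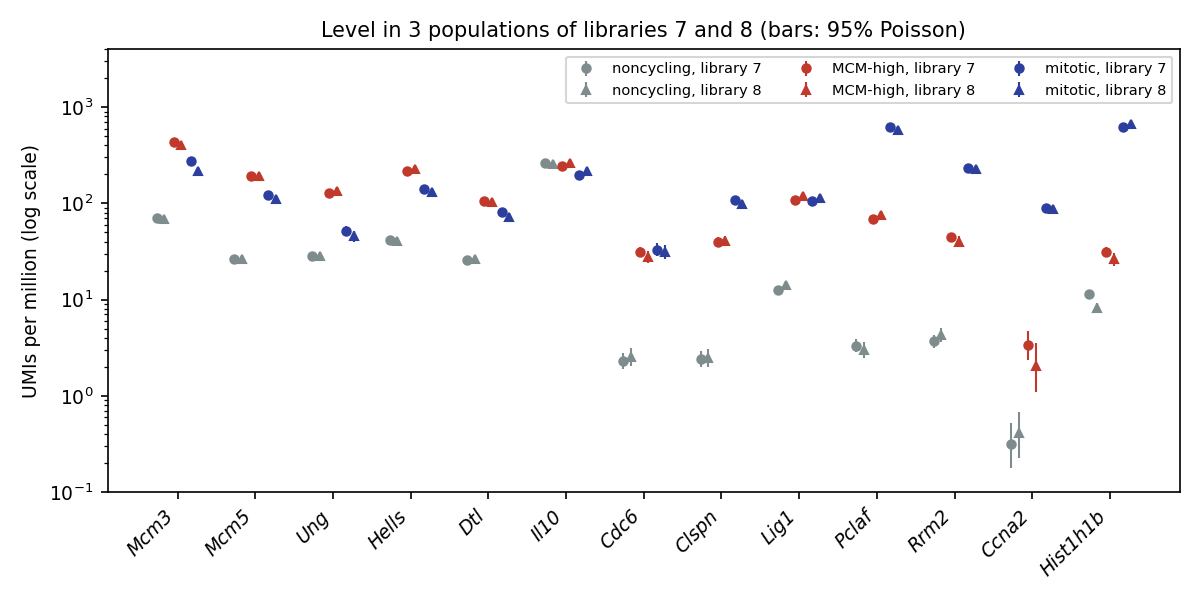
Level in CPM (log scale) of 13 genes in noncycling (grey), MCM-high (red), and mitotic cells (blue) of library 7 (circles) and library 8 (triangles), with exact 95% Poisson intervals as bars. Il10 lies at about the same height in noncycling and MCM-high cells, Ung is highest in MCM-high cells, and Pclaf, Rrm2, Ccna2, and Hist1h1b are highest in mitotic cells.

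The name S phase rests on transcripts, as DNA content was not measured, and some transcripts of S phase were far below their level in the mitotic cells, a contrast that the mitotic limit of the rule helps to set. The replication-dependent histone genes, whose mRNAs build up while DNA is copied, had a summed share of UMIs of 0.0165% and 0.0131% in MCM-high cells, against 0.0117% and 0.00952% in noncycling cells and 0.197% and 0.169% in mitotic cells of libraries 7 and 8. Of the 8 histone genes that passed the filter, 3 were higher than in noncycling cells and none was lower (median log2 ratio 0.48). Hist1h1b, a linker histone gene, stood at 31.3 and 26.3 CPM, against 11.5 and 8.19 in noncycling and 623 and 662 in mitotic cells. Ccna2, whose cyclin A2 drives S phase and G2, stood at 3.41 and 2.06 CPM, against 0.316 and 0.408 in noncycling and 88.6 and 88.3 in mitotic cells. Of the mitotic cells, 46.2% and 37.1% also passed the limit on the MCM and GINS share, and whether cells in S phase are among them was not tested. Most histone mRNAs end without a poly(A) tail, so a method that captures poly(A) reads only a part of them. The cells are called MCM-high here, after the genes of the rule.

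Against noncycling cells, 7967 genes passed the filter, of which 315 were higher in both libraries (3.95%) and 18 were lower (0.226%). Library 7 alone gave 393 higher and 48 lower genes, and library 8 alone 393 and 84. The median log2 ratio over all genes tested was -0.02, and 5330 genes (66.9%) stayed within 1.2-fold in both libraries. Of the higher genes 165 passed 2-fold, and of the lower ones 2. Of the 315 genes, 130 were in the lists of pathways used here and 185 were not. The counts of each list below stand against these 3.95% higher and 0.226% lower over all genes tested. A gene that was low in noncycling cells passed the filter only where it was high in MCM-high cells, so the counts and medians over genes that passed describe these lists and support nothing further.

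**Figure D3:**
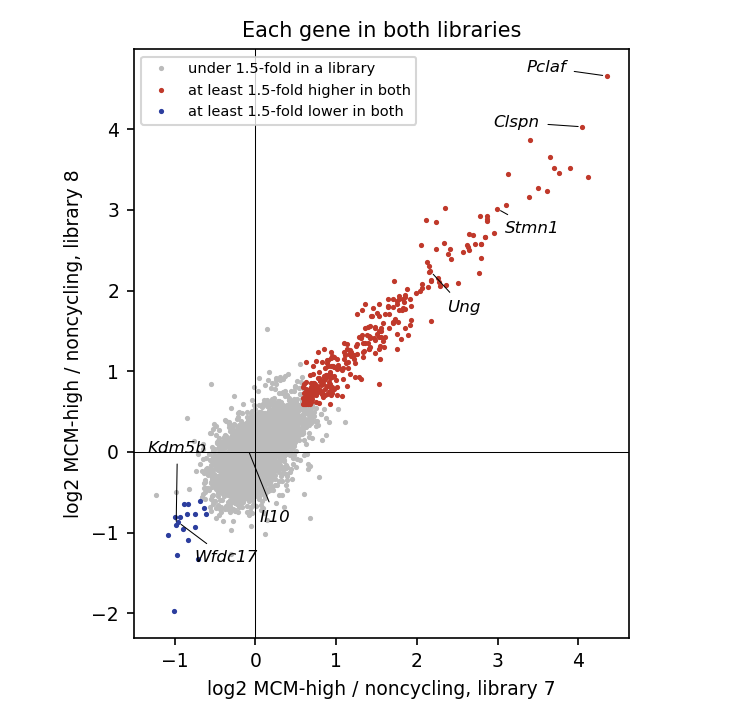
log2 ratio of MCM-high to noncycling cells in library 7 (x axis) and library 8 (y axis) for each gene with a mean of at least 5 CPM. Red and blue points are genes at least 1.5-fold higher or lower in both libraries, and grey points are the rest. The higher genes reach log2 ratios above 4 and the lower ones rarely pass -1, with Il10 near 0 on both axes.

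Many genes that load and start the helicase were higher. Of 24 licensing and helicase genes outside the rule, 22 passed the filter and 16 were higher (median log2 ratio 1.2), against 3.95% of all genes tested. Mcm10, which helps to start the loaded helicase, stood at 23.8 and 24.1 CPM in libraries 7 and 8, against 1.60 and 2.10 in noncycling cells. Cdc45 stood at 27.3 and 27.9 CPM, against 2.17 and 2.22. Cdc6 stood at 31.3 and 27.8 CPM, against 2.32 and 2.54. The mean log2 ratios of these 3 genes were 3.71, 3.65, and 3.60, and they passed the filter through the MCM-high cells alone. Within the origin recognition complex the subunits parted: Orc1, whose gene is a known E2F target, had a mean log2 ratio of 2.46 and Orc6 of 1.44, whereas Orc2, Orc3, Orc4, and Orc5 had 0.30, 0.06, -0.10, and 0.04 and were not called. Gmnn, the inhibitor of loading, stood at 149 and 148 CPM, against 25.2 and 26.6, and Cdt1, which it binds, at 33.8 and 26.6 CPM, against 13.9 and 14.

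The machinery of the fork gave the highest median of the lists outside the rule and the markers of the label. Of 34 genes for polymerases, clamp, clamp loader, and fork, 33 passed the filter and 26 were higher (median log2 ratio 1.66). Clspn codes for claspin, which links the fork to the checkpoint kinase Chk1, and it stood at 40.1 and 40.5 CPM, against 2.42 and 2.48. Dscc1, of the alternative clamp loader, stood at 18.4 and 20 CPM, against 1.41 and 1.75. Lig1, the ligase that joins Okazaki fragments, stood at 108 and 119 CPM, against 12.6 and 14.3. The values of these 3 genes did not overlap between the populations, which a call in both libraries nearly fixes. Pcna, the clamp itself, had a smaller ratio, at 116 and 107 CPM against 44.0 and 44.2. Among the polymerase subunits, the catalytic genes Pole and Pold1 had mean log2 ratios of 2.37 and 1.90, and the small subunits Pole4 and Pold4 had 0.19 and -0.07.

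Nucleotide supply was split. Of 30 genes, 29 passed and 10 were higher (median log2 ratio 0.30). Among the higher ones, Rrm2, the regulated subunit of ribonucleotide reductase, stood at 45.2 and 40.1 CPM, against 3.69 and 4.26. Dut, which clears dUTP, stood at 276 and 259 CPM, against 83.1 and 82.8. Of the purine and pyrimidine base pathways, Umps and Paics were higher, with mean log2 ratios of 0.75 and 0.65, and with depth weighting Paics had 0.62 and was not called. Gart, Cad, and Impdh2 had 0.18, 0.08, and 0.07 and were not called. Rrm2b, the subunit of ribonucleotide reductase induced by p53, had -0.41 and was not called.

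Genes that control the passage from G1 to S were in part higher. Of 35 genes of G1/S control, 27 passed, 14 were higher, and 1 was lower (median log2 ratio 0.63). E2f1, an activator of the passage, stood at 44.8 and 36.3 CPM, against 6.47 and 6.88. Mybl2, a target of E2F that acts later in the cycle, stood at 18.4 and 17.0 CPM, against 2.36 and 2.59. Ccne1 (cyclin E1) had a mean log2 ratio of 1.49 and Cdc25a, the phosphatase that frees Cdk2, 1.25. Ccnd2 (cyclin D2) was abundant in both populations, at 903 and 941 CPM against 659 and 729, and its mean log2 ratio of 0.41 was not called. Cdkn2a, which codes for the inhibitors p16 and p19Arf, was the lower gene, at 6.22 and 5.08 CPM against 11.1 and 10.8. The inhibitor genes Cdkn1a (p21) and Cdkn1b (p27) had mean log2 ratios of -0.15 and 0.03 and were not called.

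Repair genes were in part higher. Of 44 repair and checkpoint genes, 36 passed and 17 were higher, with a median of 0.53. In homologous recombination, Brca1 stood at 20.4 and 16.2 CPM, against 2.93 and 2.71, with a mean log2 ratio of 2.69. Chek1, the checkpoint kinase of stalled forks, also had 2.69. Xrcc6 and Xrcc5, of the Ku complex that joins broken ends, had 0.23 and 0.02 and were not called. Neither were the sensor kinase Atr (0.22) and Parp1 (0.11).

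Genes that copy chromatin followed. Of 33 genes, all passed and 18 were higher (median log2 ratio 0.68). Chaf1a, the large subunit of the factor that places new histones behind the fork, stood at 63.1 and 56.5 CPM, against 8.78 and 8.95. Uhrf1 and Dnmt1, which copy DNA methylation, had mean log2 ratios of 2.05 and 1.89. Nasp, a histone chaperone, stood at 301 and 305 CPM, against 115 and 119. H2afx, a histone variant used in the damage response, had a log2 ratio of 0.00. H2afz, another variant, stood at 1097 and 1002 CPM, against 676 and 634, and was higher, with a mean log2 ratio of 0.68, and it had 0.61 and 0.56 and was not called with the mitotic limit at 5 or 3 UMIs.

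**Figure D4:**
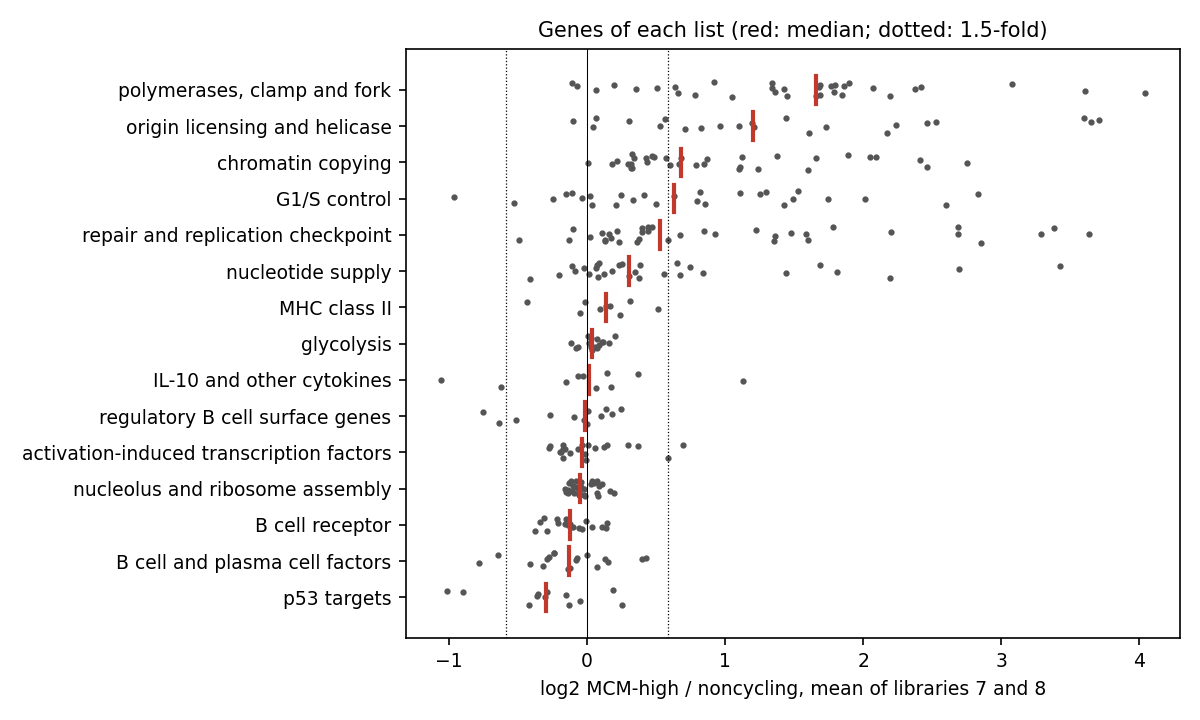
Mean log2 ratio of MCM-high to noncycling cells over libraries 7 and 8, with 1 point per gene that passed the filter, in 15 lists. Red bars are medians and dotted lines the 1.5-fold limit, which a called gene had to pass in each library. The lists of DNA copying lie to the right of 0, from a median of 0.30 for nucleotide supply to 1.66 for the fork. The medians of the other lists shown run from -0.30 for p53 targets to 0.14 for MHC class II.

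Mitotic transcripts below the limit were present as well. Of 40 genes of G2 and mitosis outside the rule, 20 passed the filter and 16 were higher (median log2 ratio 1.29), and the median member held 1 UMI of the 8 mitotic genes. Top2a, 1 of those 8, stood at 94.6 and 96.1 CPM, against 21.2 and 19.5. Cdc20, an activator of the complex that ends mitosis, did not pass the filter and stood at 5.62 and 4.92 CPM, against 3.88 and 3.50. With all cells of 3 or more mitotic UMIs left out of both populations, an alternative chosen after seeing the data, the median of this list was 0.86, that of the fork genes 1.49, and 237 genes were higher in all.

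Several mismatch and uracil repair genes that also take part in class switching were higher. Of 18 class switching genes, 16 passed, 5 were higher, and 1 was lower, against 3.95% higher and 0.226% lower over all genes tested. Exo1, Ung, and Msh6 had mean log2 ratios of 2.85, 2.20, and 1.48, and Rif1, which shields broken ends, 0.78. Pms2, of the mismatch repair pathway, had 0.59 and was not called.

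Few of the cytokine and surface genes by which Bregs are described were called. Few of all genes tested were called either (3.95% higher and 0.226% lower), so these counts show nothing particular to Breg genes. Of 24 cytokine genes 10 passed, with 1 higher, 1 lower, and a median log2 ratio of 0.02. Tgfb1 stood at 95 and 94.2 CPM, against 86.1 and 85.6. Il6 stood at 21.6 and 19.2 CPM, against 19.1 and 19.9. Ccl4, a chemokine of activated B cells, stood at 313 and 293 CPM, against 346 and 327. None of these 3 was called. Ccl5 was the higher gene, at 7.72 and 6.19 CPM against 3.50 and 2.86, and its mean level of 5.07 CPM lay just over the filter. It was not called when noncycling cells were weighted to the depth of the MCM-high cells, where its mean log2 ratio was 1.39 against 1.13 without weights. Ltb (lymphotoxin beta) was the lower gene, at 4.11 and 5.71 CPM against 8.70 and 11.7. Il27, the p28 subunit of IL-27, did not pass the filter and stood at 10.2 and 3.65 CPM, against 1.16 and 1.89, with a larger gap in library 7. Its partner Ebi3 stood at 2.91 and 3.33 CPM, against 2.86 and 3.35.

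Of 22 Breg surface genes 12 passed and 1 was lower, with a median of -0.01. Il2ra (CD25) stood at 125 and 109 CPM, against 122 and 111, Havcr1 (TIM-1) at 48.1 and 43.3, against 46.3 and 39.2, and Lrrc32 (GARP, which presents latent TGF-β) at 51.2 and 47.0, against 48.7 and 49.5. The values of these 3 genes overlapped between the populations. Cr2 (CD21) was the lower gene, with a mean log2 ratio of -0.76. Cd69, an early activation antigen, stood at 40.4 and 36.6 CPM, against 71.3 and 50.2, and passed 1.5-fold in library 7 only. Irf4, a factor of activated B cells and plasma cells, stood at 31.5 and 26.2 CPM, against 46.3 and 43.4, and passed 1.5-fold in library 8 only.

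The other B cell programs held few calls, as did all genes tested (3.95% higher and 0.226% lower), so the lack of a call sets no list apart. No gene was called among 19 of the B cell receptor (median -0.12), 21 activation-induced transcription factors (-0.04), 18 factors of B cells and plasma cells (-0.13), 7 immunoglobulin constant genes (-0.27, with -0.03 in library 7 and -0.37 in library 8), 9 of MHC class II (0.14), 17 of glycolysis (0.03), 13 of the interferon response (0.08), or 30 of the nucleolus and ribosome assembly (-0.05). In the MYC network none of 5 was called (-0.11), and Myc itself stood at 62.6 and 56.6 CPM, against 65.7 and 63.8. Of 12 p53 targets none was higher and 2 were lower, with a median of -0.30: Bbc3, the death gene PUMA, at 11.7 and 14.4 CPM against 23.5 and 25.2, and Phlda3, an inhibitor of Akt, at 4.81 and 2.70 CPM against 7.88 and 6.76. Bbc3 was not called with depth weighting, where its mean log2 ratio was -0.71 against -0.90 without.

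The cells carried the marks of B cells. Cd79a stood at 1105 and 1072 CPM and Cd74 at 6046 and 5921, within 1.1-fold of the noncycling cells in both libraries. The 9 T cell markers together gave 4.41 and 3.49 CPM, with Lck the most abundant. The 5 NK cell markers were at 0, and the 10 myeloid markers gave 0.702 and 0.476 CPM together. Of the plasma cell markers none of the 5 that passed was called. Of the erythroid markers Hbb-bt, a beta globin gene, stood at 173 and 225 CPM, against 235 and 300.1, while Hba-a1 and Hba-a2 were at 0, and its part in the other results was not tested.

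Outside the lists, the 10 genes with the highest ratios and a mean of at least 20 CPM were Pclaf, Stmn1, Fignl1, Psmc3ip, Cenps, Haus4, Syce2, Cenpm, Wdr76, and Plk4. Pclaf stood at 68.0 and 75.8 CPM, against 3.33 and 3.00, a mean log2 ratio of 4.51, and reached the mean of 20 CPM through the MCM-high cells alone. Stmn1, which takes microtubules apart, stood at 210 and 210 CPM, against 26.4 and 25.9. Fignl1 and Psmc3ip take part in homologous recombination, and their mean log2 ratios were 2.22 and 1.75. Cenps and Cenpm belong to the centromere, and Haus4 and Plk4 to the spindle and the centriole. The 5 lower genes of this kind were Kdm5b, Il4i1, Wfdc17, Prag1, and Pcmtd1. Wfdc17, which codes for a small secreted protein, was abundant, at 609 and 719 CPM against 1187 and 1310.4. Kdm5b, a histone H3K4 demethylase, stood at 29.5 and 28.6 CPM, against 58.3 and 53.6, and Il4i1, a secreted amino acid oxidase, at 47.4 and 48.1, against 88.1 and 92.9. These 3 genes were picked for their low ratios, and their values did not overlap between the populations.

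Levels also varied among the MCM-high cells themselves. Pclaf stood at 32.7 CPM in the 434 cells of library 7 with a share of 0.1% to 0.15%, at 110.0 in the 227 cells of 0.15% to 0.2%, and at 122 in the 112 cells of 0.2% to 0.3%. In library 8 it stood at 54.4, 102, and 135 CPM in 304, 140, and 45 cells. Ung went from 117 through 129 to 168 CPM in library 7 and from 127 through 134 to 173 in library 8. Both genes were thus higher in each further bin of both libraries, with a steeper course for Pclaf. Il10 stood at 232, 271, and 264 CPM in library 7 and at 249, 278, and 316 in library 8, and at 275 and 262 CPM in the noncycling cells of the lowest share (under 0.02%). Cd69 stood at 45.1, 34.7, and 32.9 CPM in library 7 and at 48.7, 15.6, and 13.5 in library 8, below the 76.0 and 52.6 CPM of the lowest share. In the noncycling cells just below the limit (0.08% to 0.1%) Cd69 stood at 39.0 and 42.6 CPM, below the first MCM-high bin of each library. Only 4 and 3 cells had a share over 0.3%, and they were left out here.

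**Figure D5:**
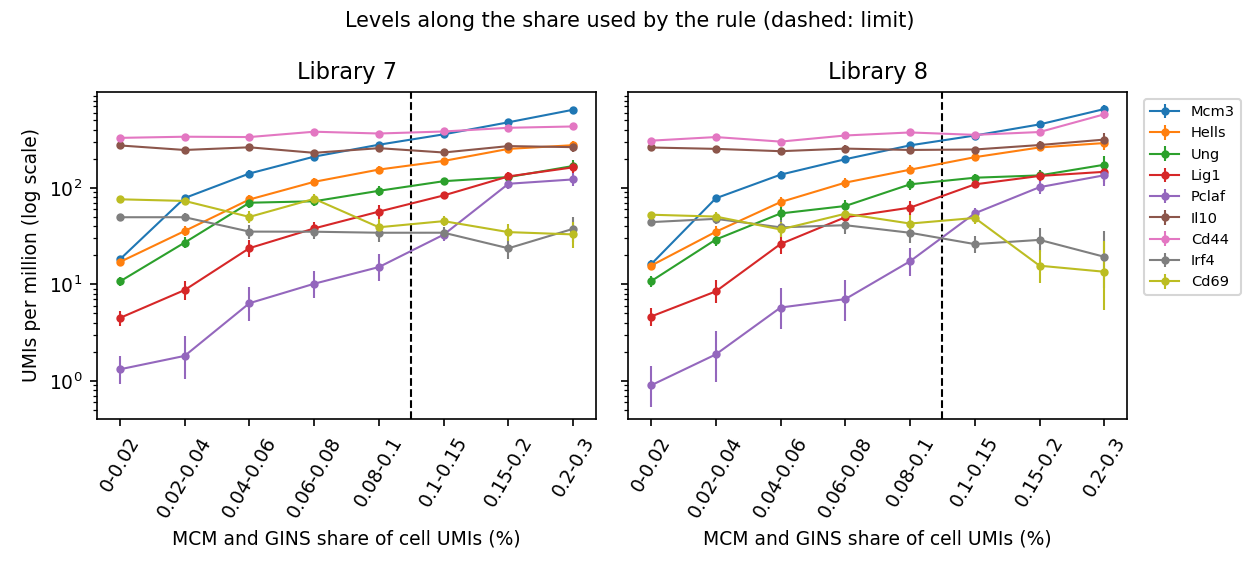
Level in CPM (log scale) of 9 genes in bins of the MCM and GINS share for libraries 7 and 8, with exact 95% Poisson intervals. Bins right of the dashed line hold MCM-high cells and those left of it noncycling cells. Mcm3 belongs to the share itself, Pclaf, Lig1, Hells, and Ung are higher at higher shares on both sides of the limit, Cd44 differs less between the first and the last bin (329 and 432 CPM in library 7, 308 and 578 in library 8), and Il10 stays between 230 and 316 CPM.

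Against the mitotic cells of the same libraries, 8074 genes passed the filter, of which 87 were higher in MCM-high cells (1.08%) and 359 lower (4.45%). Among genes outside the rule with a mean of at least 20 CPM, Ung had the highest ratio, at 127 and 134 CPM against 52.2 and 45.6. Ccnd2 stood at 903 and 941 CPM, against 416 and 462, and Cd40, the costimulatory receptor of B cells, at 36.2 and 32.5, against 18 and 16.2. Nupr1, a stress-induced gene, stood at 186 and 162 CPM, against 75.8 and 78.5. Most genes of DNA copying were not called in this comparison, and those called were mostly lower. Lig1 stood at 108 and 119 CPM, against 105 and 114 in mitotic cells. Over its list 1 of 34 fork genes was higher and 2 were lower, and of 24 licensing genes 1 was higher and 3 were lower. The lower genes numbered 11 of 33 in G1/S control, 9 of 41 in repair, 9 of 33 in chromatin copying, and 5 of 29 in nucleotide supply, with 1, 2, 1, and 0 higher. Pclaf, Rrm2, and Clspn were lower, with Pclaf at 616 and 578 CPM in mitotic cells. Of 39 G2 and mitosis genes outside the rule, 38 were lower (median log2 ratio -2.70), a contrast that the mitotic limit of the rule itself sets up. Il10 stood at 196 and 218 CPM in mitotic cells and was not called.

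By the same limits, libraries 5 and 6 held 82 and 86 MCM-high cells, 1.95% (1.56% to 2.42%) and 1.82% (1.46% to 2.25%) of their cells. There were 2.60 and 1.90 MCM-high cells per mitotic cell in libraries 7 and 8, against 0.3 and 0.251 in libraries 5 and 6, where the mitotic cells were 6.51% and 7.28%. Whether this goes with the culture cannot be said, as the libraries are not tied to groups. The few MCM-high cells of libraries 5 and 6 had Mcm3 at 366 and 385 CPM, Ung at 96.6 and 106, and Hells at 233 and 256. Pclaf stood at 188 and 256 CPM there, above both values of libraries 7 and 8. Il10 stood at 23.5 (15.6 to 34.0) and 32.3 CPM (22.9 to 44.1), against 13.8 and 10.4 in their noncycling cells. These levels rest on 28 and 39 UMIs in 9 and 21 cells, of which 5 cells held 82.1% and 51.3%.

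The E2F letters were searched in all 32851 RefSeq promoter windows of this length, and 2.26% of them held a match. Of the 7967 genes tested, 6350 had a window by symbol, and 5.29% of these held one. Among the 315 higher genes 245 had a window, and 60 of these (24.5%) held a match, against 4.51% of genes without a call. The 315 include the rule's 7 genes, of whose 5 windows 4 held a match, and genes that passed the filter through the MCM-high cells alone. The choice of cells thus had a part in these shares, which were not tested. By list, 8 of 19 windows of licensing genes, 9 of 28 of fork genes, and 9 of 26 of chromatin genes held a match, but 1 of 26 of nucleotide supply and 1 of 34 of G2 and mitosis. The CCAAT box (CCAAT or ATTGG) was in 37.4% of all windows, in 43.2% of those of the genes tested, in 42.6% of those without a call, in 58.0% of those of the higher genes, and in 76.5% of those of the G2 and mitosis list. It was also in 80.8% of the windows of chromatin genes and in all 7 windows of MHC class II genes, none of which was called. Ung, with neither motif in its window, was among the higher genes. A match, or the lack of one, describes the sequence of the window and does not show whether a site is bound.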

How the data were processed

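Transcripts of single B cells were captured at their 3' ends on the 10x platform (chemistry v3). The authors used Cell Ranger 3.1.0 and bcl2fastq (per the submitters' processing notes) with the mm10 genome and genes of Ensembl 93 to obtain UMI counts per cell, and combined libraries with its aggr step, which can thin reads to a common depth. The deposited matrix holds raw UMI counts of 31053 genes in 35989 columns. The other deposited tables hold the gene names and 19920 cell barcodes, with suffixes 5 to 8 for the libraries.

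Barcodes were placed on the last 19920 columns, and 16069 columns were not used. Across the 400 columns before and after the resulting start of library 7, Il10 went from 8.62 to 249 CPM. No deposited label names the sample of a library.

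Libraries 7 and 8 held 63638158 and 45672518 UMIs in cells with at least 1000 genes and under 10% mitochondrial UMIs. UMIs were summed per library and population and divided by the total (CPM). Intervals are exact Poisson for CPM, exact binomial (Clopper-Pearson) for shares, and exact conditional for log2 ratios, at 95%, and cover counting error only. Ratios with a count of 0 used a floor of 3 counts per sum. No doublet caller was run, and the deepest cells were left out as an alternative. Cells are not replicates, so no p-value was computed. The ratio and interval code was tested on simulated data. Genes named are those of lists and, outside them, the 10 highest and lowest ratios among called genes with a mean of at least 20 CPM. Hist1h1b and the genes named against mitotic cells (from the 10 highest ratios with a mean of at least 20 CPM) were chosen after their values were seen. Some genes of the lists are counted but not reported by name here. The members and the lists were chosen with earlier results of these data known. Promoters are RefSeq windows on GRCm38.p6, matched by symbol. Python 3.11.15, numpy 2.4.6, scipy 1.17.1, and pandas 2.3.3 were used.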

Additional observations from a re-analysis of the deposited data

How the results depend on the processing

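The share of MCM-high cells in libraries 7, 8, 5, and 6 moved beyond its counting interval with the limits of the rule. It was 25.4%, 23.3%, 3.67%, and 3.39% with the limit at 0.05%, 6.10%, 4.70%, 0.763%, and 0.827% at 0.15%, and 11.8%, 10.5%, 1.45%, and 1.12% with under 5 mitotic UMIs. Thinned to 5000 UMIs it was 15.7% and 14.1% in libraries 7 and 8, and with under 7% mitochondrial UMIs it was 2.93% and 2.82% in libraries 5 and 6. At 2-fold, 165 genes were higher and 2 lower than in noncycling cells, and 9 higher and 202 lower than in mitotic cells. With a mean of at least 1 CPM, 505 were higher and 65 lower than in noncycling cells and 231 higher than in mitotic cells, and with at least 20 CPM these counts were 141, 5, and 34, with 175 lower than in mitotic cells. The lower genes against noncycling cells numbered 29 without mitochondrial, ribosomal protein, and immunoglobulin genes in the denominator, 48 in library 7 alone, 84 in library 8 alone, and 46 with limits of 0.15% and 0.05%. Against mitotic cells, 246 genes were higher in library 7 alone, 306 higher and 596 lower in library 8 alone, and 136 higher without the deepest 5% of cells.

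Of the 315 higher genes, 272 remained with noncycling cells weighted by depth, 298 with TMM scaling, and 232 without cells of 3 or more mitotic UMIs. Of the 18 lower genes, 12, 18, and 11 remained. Named genes that lost a call include Bbc3 (mean log2 ratio -0.90 to -0.71), Pcmtd1 (-0.65 to -0.51), Nupr1 (0.78 to 0.58), and Ccl5 (1.13 to 1.39) with depth weighting, and H2afz (0.68 to 0.56), Prag1 (-0.67 to -0.53), Birc5 (2.49 to 0.95), and Tpx2 (1.77 to 1.01) without cells of 3 or more mitotic UMIs. In library 8 alone Phlda3 (-1.02 to -1.33) and Ccl5 (1.13 to 1.11) were not called. Their ratios still passed 1.5-fold there, but their mean level fell below the filter of 5 CPM. Ccl5 was also not called with limits of 0.15% and 0.05% (1.48) or under 5 mitotic UMIs (1.09). No result changed its direction among called genes under the alternatives run. Genes near 5 CPM rest on few UMIs. No paired analysis was possible because the matrix columns carry no replicate numbers of the labels and no result comes from a test. Ratios were taken within each library, which holds all populations compared.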

Other observations

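Some mitotic cells also passed the limit on the MCM and GINS share: 46.2% and 37.1% in libraries 7 and 8, and 31.9% and 32.7% in libraries 5 and 6. All cells over that limit, mitotic ones included, made up 16.3% and 14.7% of libraries 7 and 8, and 4.03% and 4.20% of libraries 5 and 6. Ribosomal protein genes gave 33.2% and 35.3% of UMIs in MCM-high cells, against 34.3% and 36.1% in noncycling cells of libraries 7 and 8, and the median mitochondrial share was 4.95% and 4.91%, against 4.53% and 4.56%.

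In libraries 5 and 6, Wfdc17 stood at 207 and 299 CPM in MCM-high cells, against 477 and 568 in noncycling cells, and Kdm5b at 8.4 and 12.4 CPM, against 31.0 and 32.3. Ltb stood at 152 and 117 CPM there, against 460 and 496. Cd69 stood at 144 and 139 CPM, against 148 and 142. Irf4 stood at 5.88 and 4.96 CPM, against 3.23 and 3.63, the other direction from that in libraries 7 and 8. This difference rests on few Irf4 UMIs in the MCM-high cells and was not tested. In libraries 7 and 8 Wfdc17 stood at 687, 529, and 449.5 CPM along the 3 bins of rising MCM share in library 7, and at 722, 585, and 1177 CPM in library 8, where the last bin held 45 cells.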
